A study of Homo sapiens with 12 samples.

Results

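The mitochondrial pore effectors and the apoptosome are represented here by 8 genes, BAX, BAK1, BOK, VDAC1, VDAC2, APAF1, CYCS and CASP9. They were found by their GENCODE symbols among the 60675 Ensembl identifiers listed for each library, and each symbol had 1 identifier. The genes were measured by RNA-sequencing in SUDHL6 and SUDHL16, cell lines derived from diffuse large B-cell lymphoma (DLBCL), and in the venetoclax-resistant line made from each. Venetoclax (ABT-199) is an inhibitor of the anti-apoptotic protein BCL2. The resistant lines came from long culture in rising venetoclax doses, grew at 10 times the IC50 of their parental line or more, and were kept in the drug. For experiments the cells were moved to fresh medium, and whether venetoclax was present when RNA was taken is not stated. The labels describe 1 resistant line for each parental line and do not say whether it was cloned.

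There were 4 groups of 3 libraries, SUDHL6-parental, SUDHL6-resistant, SUDHL16-parental and SUDHL16-resistant. For SUDHL6 the kit was NEBNext Ultra II and the instrument a HiSeq. For SUDHL16 they were Illumina Stranded Total RNA Prep, in its Ribo-Zero Plus version, and a NovaSeq. Line, kit and instrument therefore cannot be told apart. The labels do not say whether the 3 libraries of a group came from separate cultures, so the p-values measure only the spread between these libraries, which may be technical. Replicates are numbered in the order of deposit and pair no libraries.

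Cells that receive a death signal through BCL2 family proteins activate BAX and BAK1, which oligomerize and open pores in the outer mitochondrial membrane. Cytochrome c, the product of CYCS, then leaves the space between the membranes and binds APAF1, which assembles into the apoptosome and activates the initiator caspase CASP9. VDAC1 and VDAC2 are channels of the outer membrane, VDAC2 is a known partner of BAK1 and BAX there, and BOK is a further relative of BAX and BAK1 that can form pores.

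The library totals were between 33992784 and 40885665 counts in SUDHL6 and between 4131927 and 22068221 in SUDHL16. The lowest total belonged to SUDHL16-parental replicate 2, the library CE-26. Identifiers that GENCODE 44 lacks held 31.9% of the counts of CE-26 and protein-coding genes held 55.4%, where the 5 other SUDHL16 libraries had 1.61% to 5.06% and 84.3% to 90.2%. The library also stood apart in its TMM factor, which was 0.727 against 1.04 to 1.09 in the others. The members together received 1801 counts in CE-26 and 8332 to 13050 in each other SUDHL16 library, so tests in SUDHL16 were also made without it.

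**Figure D1:**
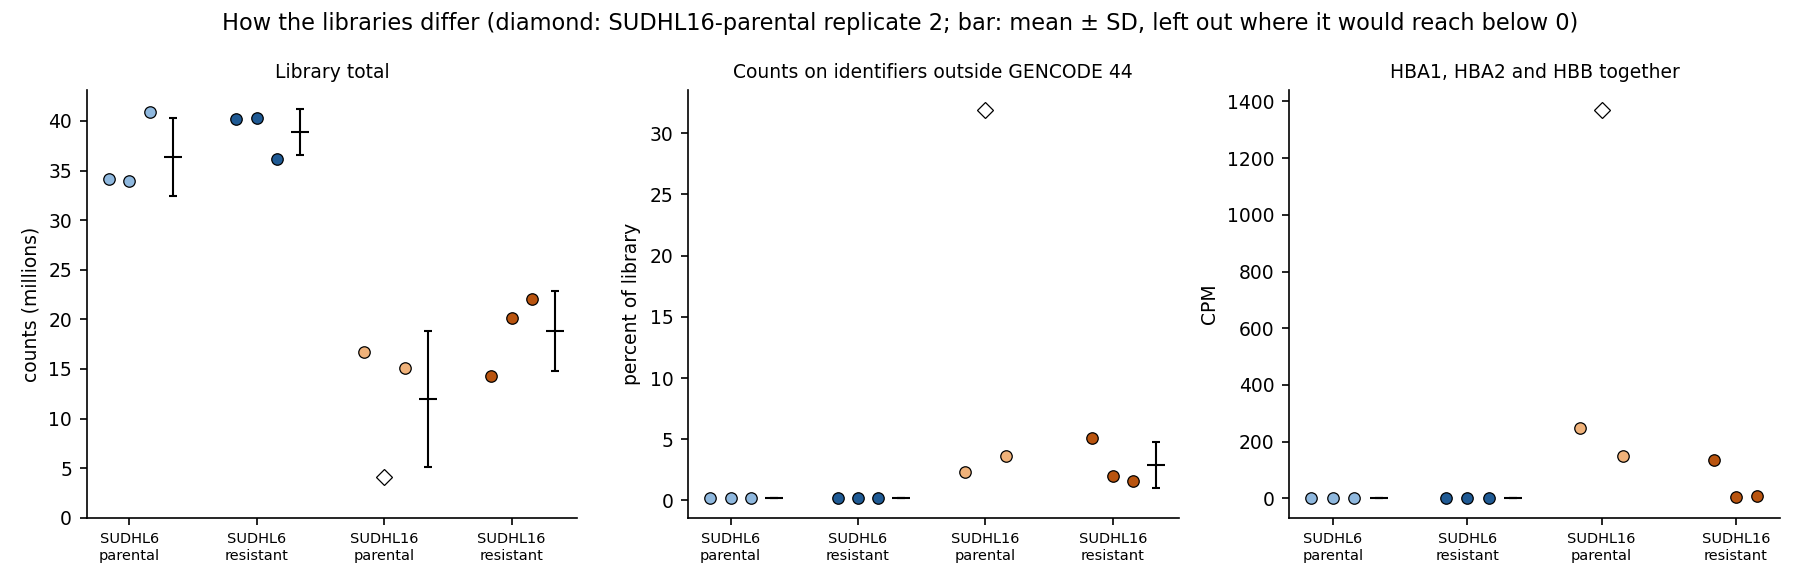
Library total, percent of counts on identifiers outside GENCODE 44, and summed CPM of HBA1, HBA2 and HBB, by group, with each of the 12 libraries as a point and bars for mean and SD where they stay above 0. CE-26, drawn as an open diamond, has the lowest total (4131927 counts), the highest share outside the annotation (31.9%) and the highest globin sum (1370 CPM).

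The label of the cells was checked against fixed marker lists. All 6 B cell markers and all 4 germinal centre markers had counts in every library, with B cell sums of 2334 to 4154 CPM, of which the lowest was in CE-26. MS4A1 was the most abundant of them in SUDHL6, at 1827 to 2160 CPM. Myeloid and epithelial markers were low. The myeloid sum was at most 1.24 CPM outside CE-26 and 12.1 CPM in it, and the epithelial sum at most 1.58 CPM outside CE-26 and 14.1 CPM in it.

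Germinal centre markers moved with the SUDHL6 groups. Their sum was 417, 402 and 406 CPM in SUDHL6-parental and 562, 573 and 569 CPM in SUDHL6-resistant, with BCL6 the most abundant in each library and none at 0. LMO2 had 8.34, 6.99 and 5.97 CPM against 25.8, 25.8 and 25.6 CPM, and MME was lower, at 107 to 109 CPM against 50.9 to 56.3 CPM. The part of these differences in the SUDHL6 results was not tested.

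Other markers moved with the SUDHL16 groups. Of the 4 fibroblast markers DCN was the most abundant, at 19.7, 25.5 and 19.7 CPM in SUDHL16-parental and 0, 0.235 and 0.425 CPM in SUDHL16-resistant, while COL1A1 was at 0 in all 3 parental libraries. The fibroblast list summed to 20.1, 42.0 and 19.8 CPM in the parental libraries and to 0, 0.518 and 0.425 CPM in the resistant ones. Of the 6 T cell markers CD3E was the most abundant in these libraries other than CE-26, where CD3G was. CD3E stood at 1.16, 4.48 and 1.30 CPM in SUDHL16-parental and 13.1, 13.4 and 10.8 CPM in SUDHL16-resistant. CD3G did not rise with it, at 0.331, 5.51 and 1.06 CPM in the parental and 0, 0.376 and 0.723 CPM in the resistant libraries. CD3D was at 0 in 5 of these 6 libraries, and CD2 and CD7 had counts only in CE-26 among them. The T cell list summed to 1.49, 14.1 and 2.86 CPM and to 13.1, 13.7 and 11.6 CPM.

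The globin genes HBA1, HBA2 and HBB, listed as erythroid markers, summed to 248, 1370 and 151 CPM in SUDHL16-parental and to 136, 5.51 and 8.08 CPM in SUDHL16-resistant. HBA2 was the most abundant in each of these libraries. In SUDHL6 the sum was between 0.0990 and 0.298 CPM. The part of these differences in any SUDHL16 result below was not tested. In bulk RNA, fewer cells that express a gene and less of its RNA per cell cannot be told apart.

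The first question was how abundant each member was. Levels are CPM, counts scaled by library size and by the TMM factor of edgeR, and genes are compared with each other per kb of merged exons. In SUDHL6-parental VDAC1 was the highest, at 73.2 ± 1.59 CPM per kb (SD, n = 3), followed by VDAC2 at 56.6 ± 1.24 and CYCS at 54.9 ± 0.978, whose libraries overlapped. Next came BAX at 34.5 ± 0.786, BAK1 at 22.3 ± 0.716, APAF1 at 6.05 ± 0.115, CASP9 at 3.04 ± 0.172 and BOK at 0.285 ± 0.0653 CPM per kb, each without overlap with the next. Cytochrome c and the channels were the abundant RNAs among these 8 genes, and the caspase and its scaffold were low.

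SUDHL6-resistant kept this order except for 1 exchange. CYCS, at 55.2 ± 1.24 CPM per kb, stood above VDAC2, at 51.1 ± 0.788, without overlap of the libraries. All 7 steps between neighbours in the order were free of overlap in this group.

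In SUDHL16-parental the order was led by VDAC2, at 43.3 ± 2.47 CPM per kb (SD, n = 3), with no overlap with VDAC1 at 33.7 ± 6.54. CYCS (28 ± 5.70) overlapped VDAC1, APAF1 (19.3 ± 0.849) overlapped BAX (17.2 ± 3.09), and BAX overlapped BAK1 (14.8 ± 4.43). Without CE-26 the order of the means was the same for these 6 genes, from 44.7 for VDAC2 and 37.1 for VDAC1 to 18.1 for BAX and 17.2 for BAK1. In SUDHL16-resistant VDAC1 (34.0 ± 3.77) and VDAC2 (32.6 ± 2.05) overlapped and stood above BAK1, CYCS, BAX and APAF1, which had means of 16.5 to 17.8 CPM per kb and overlapped as neighbours. CASP9 came next in both groups, at 4.20 ± 0.959 and 5.58 ± 1.07 CPM per kb.

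APAF1 and CASP9 were the members with a higher mean in SUDHL16-parental than in SUDHL6-parental among the 7 members with counts in all libraries. The APAF1 means were 19.3 and 6.05 CPM per kb. Whether this comes from the line or from its kit and instrument cannot be told apart. The TMM factors were also computed within each line, so CPM values of the lines do not share a common scale.

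**Figure D2:**
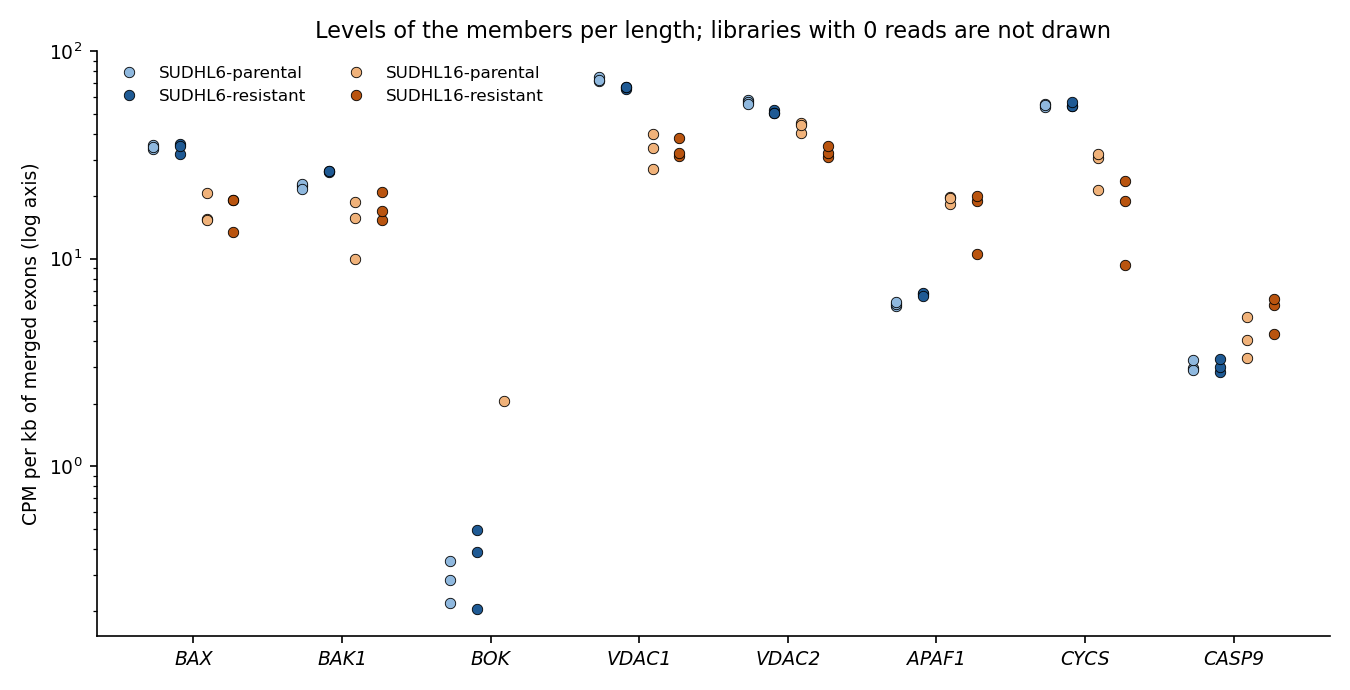
CPM per kb of merged exons on a log axis for the 8 members, with 1 point per library and 1 colour per group. VDAC1 leads in SUDHL6 (73.2 CPM per kb in the parental mean), VDAC2 in SUDHL16-parental (43.3), and BOK lies at the bottom.

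The second question was which members differed between resistant and parental cells. In SUDHL6, 0 of 8 members were called, that is passed an adjusted p of 0.05 and differed 1.5-fold or more, where 8.96% of the 16662 genes tested were called. With no limit on the fold change 4 members passed the edgeR quasi-likelihood test with Benjamini-Hochberg adjustment, also 4 at an unadjusted p under 0.05 (45.2% of all genes), and DESeq2 called 0 as well. The share of all genes past the adjusted p alone was 37.3%. BAK1 and APAF1 rose, in a background where 17.7% of genes rose, and VDAC1 and VDAC2 fell, where 19.7% fell. The 4 changes were small, between 0.903 and 1.18 times the parental level.

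Among the pore-forming effectors, BAK1 (ENSG00000030110, chr6:33572547-33580293, minus strand, GRCh38) had 49.4, 50.9 and 47.7 CPM in the SUDHL6-parental libraries and 58.4, 57.9 and 58.5 CPM in SUDHL6-resistant. The groups did not overlap, and the 3 resistant libraries lay within 1 CPM of each other. BAK1 rose by a log2 fold change of 0.24 (95% interval 0.17 to 0.31, edgeR adjusted p = 7.13e-05), or 1.18-fold. This was a larger change than that of 61.5% of all genes tested in the line. For APAF1, VDAC2 and VDAC1 this share was 46.4%, 44.9% and 40.5%. These are RNA levels, which do not give the level of the protein. By Western blot the study's authors reported less BAK protein in their acquired venetoclax-resistant lines, SUDHL6 and SUDHL16 among them. Why RNA and protein differed in direction in SUDHL6 was not tested.

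BAX (ENSG00000087088, chr19:48954815-48961798, plus strand), the other main effector, had 87.2, 91.2 and 89.0 CPM in SUDHL6-parental and 92.4, 82.7 and 90.7 CPM in SUDHL6-resistant. Resistant replicate 2 was the lowest and resistant replicate 1 the highest of the 6, so the groups overlapped. Its log2 fold change was -0.01 (95% interval -0.09 to 0.08, edgeR adjusted p = 0.890). The counts of BAX over those of BAK1, a ratio that no scaling of the libraries touches and that was chosen after the values were seen, were 1.77, 1.79 and 1.87 in SUDHL6-parental and 1.58, 1.43 and 1.55 in SUDHL6-resistant. The ratio was lower in all 3 resistant libraries of SUDHL6. In SUDHL16 the groups overlapped, with 1.16, 1.80 and 1.30 in the parental and 1.07, 1.46 and 0.921 in the resistant libraries.

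BOK (ENSG00000176720, chr2:241551424-241574131, plus strand) was low in SUDHL6 but above the floor of 3 counts, which is 0.0737 to 0.0885 CPM there. It had 32, 20 and 31 counts in SUDHL6-parental (0.940, 0.590 and 0.762 CPM) and 53, 42 and 20 counts in SUDHL6-resistant (1.32, 1.04 and 0.551 CPM). The groups overlapped, and the interval of the log2 fold change, -0.35 to 1.05, was the only one in SUDHL6 that reached past a 1.5-fold change. The log2 fold change itself was 0.35 (edgeR adjusted p = 0.438), with 0.07 without SUDHL6-resistant replicate 1 and 0.62 without SUDHL6-resistant replicate 3.

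Both channels of the outer membrane were lower in SUDHL6-resistant. VDAC1 (ENSG00000213585, chr5:133971871-134004975, minus strand) had 228, 218 and 223 CPM in the parental and 200, 206 and 206 CPM in the resistant libraries. VDAC2 (ENSG00000165637, chr10:75210154-75231448, plus strand) had 162, 159 and 155 CPM against 146, 142 and 142 CPM. Neither gene overlapped between the groups. VDAC1 fell by 0.13 on the log2 scale (95% interval -0.18 to -0.08, edgeR adjusted p = 7.72e-04). VDAC2 fell by 0.15 (95% interval -0.20 to -0.09, edgeR adjusted p = 4.71e-04). Their ratio did not separate the groups, with 1.38 to 1.43 counts of VDAC1 per count of VDAC2 in the parental libraries and 1.37 to 1.45 in the resistant ones.

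In the apoptosome, the scaffold APAF1 (ENSG00000120868, chr12:98645290-98735433, plus strand) had 46.0, 46.9 and 47.8 CPM in SUDHL6-parental and 52.3, 53.2 and 51.2 CPM in SUDHL6-resistant. All resistant libraries lay above all parental ones. APAF1 rose by a log2 fold change of 0.15 (95% interval 0.08 to 0.23, edgeR adjusted p = 0.00244).

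CYCS (ENSG00000172115, chr7:25118656-25125260, minus strand) had 312, 322 and 320 CPM in SUDHL6-parental and 315, 315 and 328 CPM in SUDHL6-resistant. CASP9 (ENSG00000132906, chr1:15490832-15526534, minus strand) had 15.6, 15.4 and 17.1 CPM against 15.0, 15.8 and 17.4 CPM. Both overlapped between the groups. The intervals of the log2 fold change were -0.04 to 0.05 for CYCS (edgeR adjusted p = 0.847) and -0.16 to 0.16 for CASP9 (edgeR adjusted p = 0.982), so differences of 1.5-fold lay outside both.

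The 4 members that passed the test were also those whose SUDHL6 libraries did not overlap, 4 of 8, where 47.9% of all genes tested did not overlap. The intervals of 7 of 8 members lay within a 1.5-fold change in either direction. The spread of SUDHL6 was estimated from its own 6 libraries, with a biological coefficient of variation of 0.0516. In 1 fit of all 12 libraries, which shares a single spread with SUDHL16, 0 of 8 members passed. The fold changes were the same there, 0.24 for BAK1 and -0.15 for VDAC2, and the edgeR adjusted p of BAK1 was 1, the highest over its alternatives, of which the lowest, with DESeq2, was 1.08e-08.

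**Figure D3:**
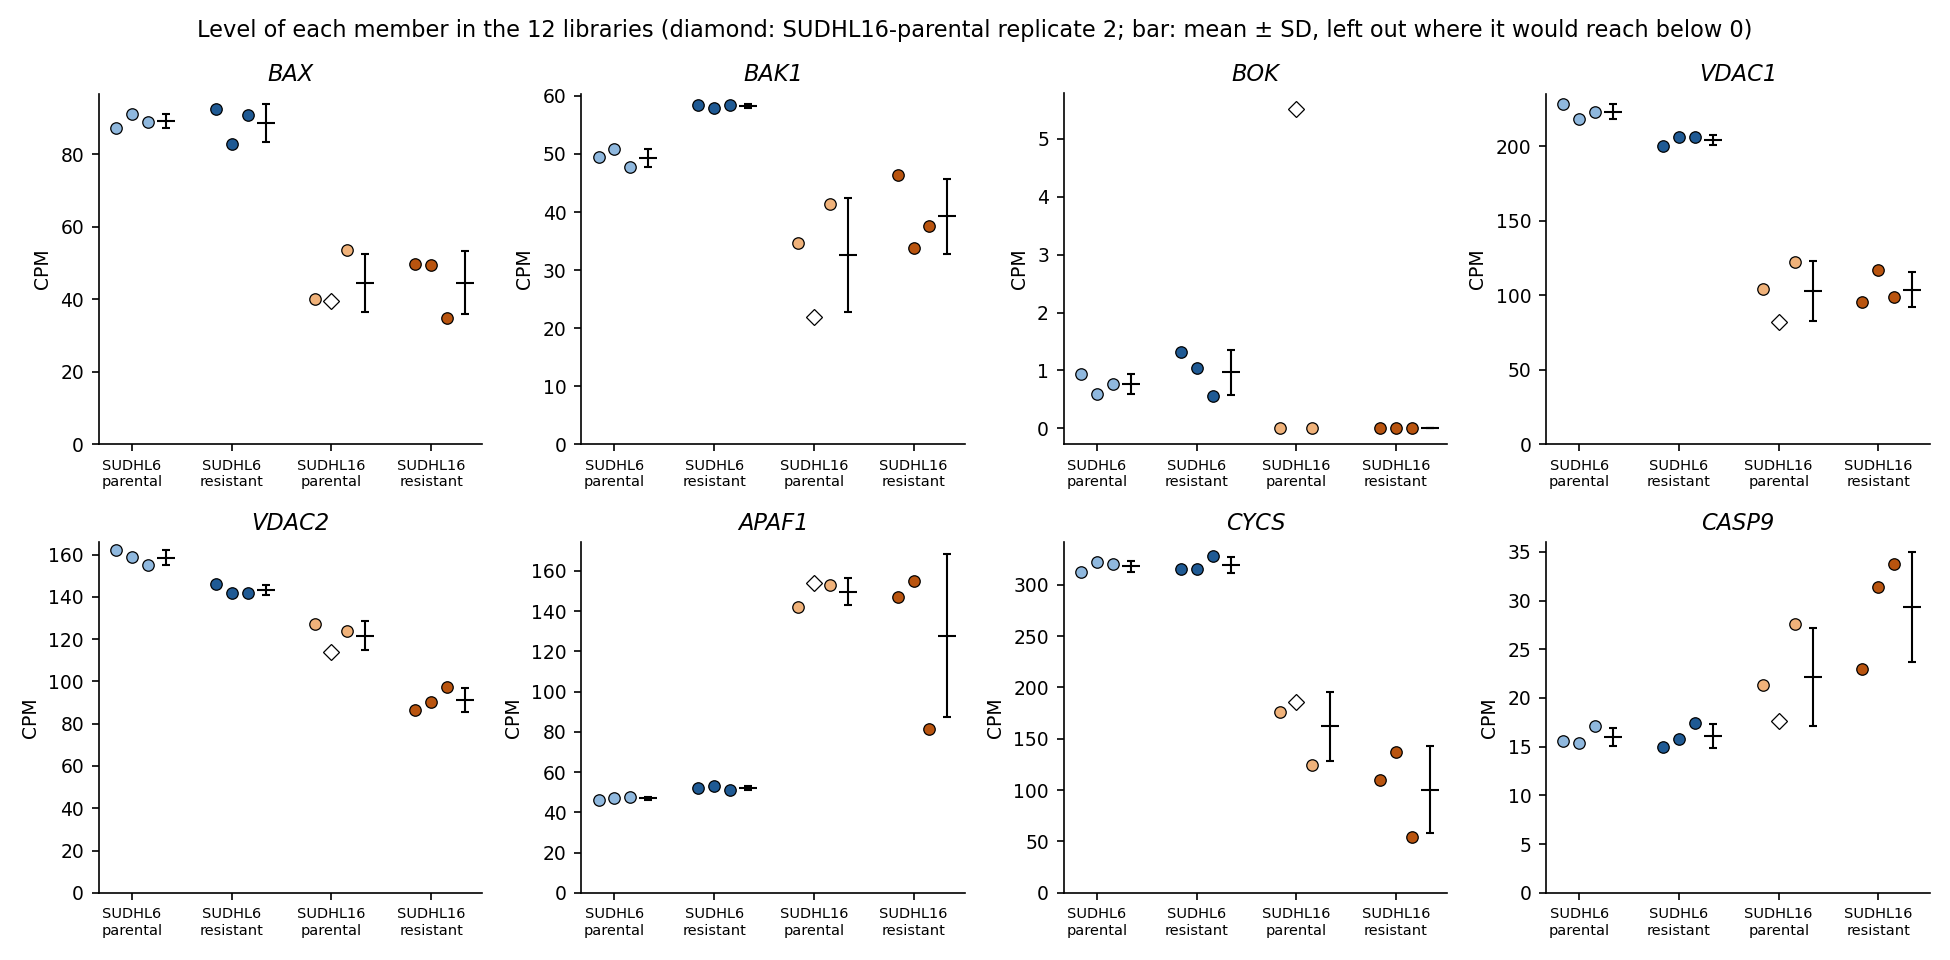
CPM of each member in the 12 libraries by group, with the mean and SD as a bar and CE-26 as an open diamond. In SUDHL6, BAK1 (58.4, 57.9 and 58.5 CPM) and APAF1 are higher and VDAC1 and VDAC2 lower in all resistant libraries, and in SUDHL16 VDAC2 is the member whose groups do not overlap.

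In SUDHL16, 7 of the 8 members could be tested and 0 were called, where 5.30% of the 15708 genes tested were called. Without CE-26, 0 of 7 were called, where 10.0% of 16280 genes were. At an unadjusted p under 0.05 there were 0 members with all libraries, where 19.1% of all genes were, and 1, VDAC2, without CE-26, where 23.3% were. DESeq2 called 0. The spread between libraries was wide in this line, with a biological coefficient of variation of 0.468, and 0.339 without CE-26. The intervals of 2 of 7 members, BAX and VDAC1, lay within a 1.5-fold change with all libraries and those of 0 of 7 without CE-26.

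VDAC2 was the only member whose SUDHL16 libraries did not overlap, 1 of 7, where 26.6% of all genes tested did not overlap, and 42.2% without CE-26. It had 127, 114 and 124 CPM in the parental and 86.3, 90.3 and 97.6 CPM in the resistant libraries, with CE-26 the lowest of the parental ones. The log2 fold change was -0.41 (95% interval -0.89 to 0.07, edgeR adjusted p = 0.338), and -0.45 without CE-26 (edgeR adjusted p = 0.214). It did not pass, and over the alternatives its adjusted p was 0.0822 to 0.780.

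VDAC1 showed no such difference in SUDHL16. It had 104, 82.3 and 122 CPM in the parental and 95.4, 117 and 98.7 CPM in the resistant libraries, with overlap. Its log2 fold change was 0.01 (95% interval -0.54 to 0.55, edgeR adjusted p = 0.990), and -0.12 without CE-26 (edgeR adjusted p = 0.804). The counts of VDAC1 over those of VDAC2, again a ratio chosen after the values were seen, were 0.820, 0.724 and 0.987 in SUDHL16-parental and 1.11, 1.29 and 1.01 in SUDHL16-resistant. The resistant libraries were higher in every case, by a small margin between parental replicate 3 and resistant replicate 3.

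The main effectors overlapped between the SUDHL16 groups. BAK1 had 34.7, 22 and 41.3 CPM in the parental and 46.4, 33.8 and 37.6 CPM in the resistant libraries. CE-26 was the lowest of the 6, and its 64 counts gave an exact Poisson interval of 17.0 to 28.1 CPM, which covers counting error only. The log2 fold change of BAK1 was 0.25 with all libraries (95% interval -0.39 to 0.90, edgeR adjusted p = 0.702) and 0.06 without CE-26 (95% interval -0.48 to 0.60, edgeR adjusted p = 0.913). Without SUDHL16-parental replicate 3 it was 0.46, the highest of the fits that leave out 1 library.

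BAX had 40.1, 39.6 and 53.7 CPM in SUDHL16-parental and 49.6, 49.5 and 34.7 CPM in SUDHL16-resistant. The means were 44.5 ± 7.99 and 44.6 ± 8.58 CPM (SD, n = 3), and the lowest and the highest library were resistant replicate 3 and parental replicate 3. The interval of the log2 fold change was -0.56 to 0.56 (edgeR adjusted p = 0.999), and -0.64 to 0.52 without CE-26. The fits without 1 of the 6 libraries gave -0.08 to 0.18.

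BOK had 0 counts in 5 of the 6 SUDHL16 libraries, where a floor of 3 counts is 0.128 to 0.201 CPM. CE-26 had 16 counts, or 5.51 CPM (exact Poisson interval 3.15 to 8.95). The gene was removed by the filter on low counts, and since the parental mean rests on CE-26 alone, no fold change is given.

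Of the apoptosome genes in SUDHL16, CYCS had 176, 186 and 124 CPM in the parental and 110, 137 and 54.1 CPM in the resistant libraries. Resistant replicate 3 stood far below the others, and resistant replicate 2 lay above parental replicate 3. The log2 fold change was -0.69 (95% interval -1.51 to 0.14, edgeR adjusted p = 0.354), and -0.57 without CE-26 (edgeR adjusted p = 0.415). Fits without 1 of the 6 libraries gave -0.98 to -0.38.

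APAF1 had 142, 154 and 153 CPM in SUDHL16-parental and 147, 155 and 81.2 CPM in SUDHL16-resistant. The low value was again resistant replicate 3, and the other 5 libraries were close together. The log2 fold change was -0.23 (95% interval -0.89 to 0.44, edgeR adjusted p = 0.743), and -0.20 without CE-26 (edgeR adjusted p = 0.764). The fits without 1 of the 6 libraries gave -0.39 to 0.02.

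CASP9 had 21.3, 17.6 and 27.6 CPM in SUDHL16-parental and 23, 31.4 and 33.7 CPM in SUDHL16-resistant. Resistant replicate 3, the lowest for CYCS and APAF1, was the highest for CASP9. CASP9 overlapped between the groups, and its log2 fold change was 0.40 (95% interval -0.23 to 1.03, edgeR adjusted p = 0.498), and 0.28 without CE-26. The fits without 1 of the 6 libraries gave 0.28 to 0.60.

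**Figure D4:**
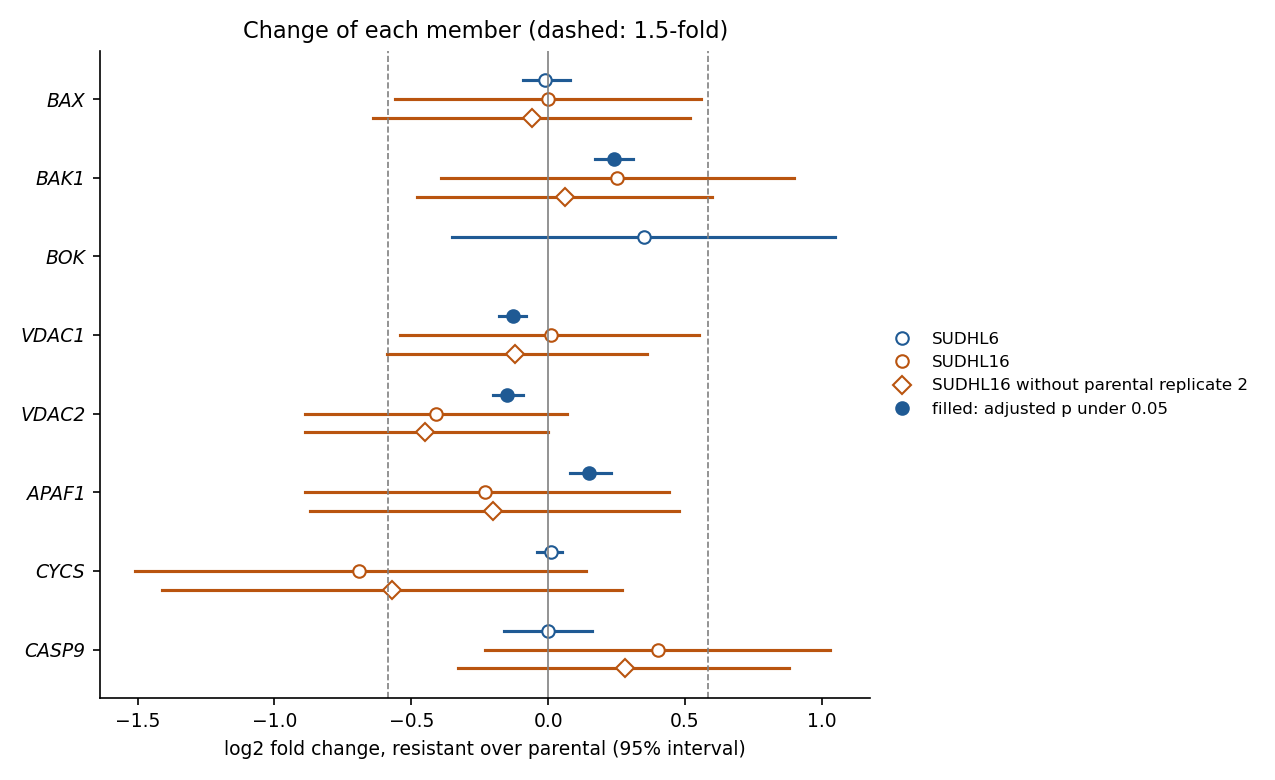
log2 fold change of each member, resistant over parental, with 95% intervals, in SUDHL6, in SUDHL16 and in SUDHL16 without CE-26, with dashed lines at a 1.5-fold change. The SUDHL6 intervals are narrow, with a median width of 0.142, against 1.27 in SUDHL16, and filled points (BAK1, VDAC1, VDAC2 and APAF1 in SUDHL6) passed an adjusted p of 0.05.

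The third question was whether a member changed differently in the 2 lines. The difference of the changes was tested in edgeR over 19621 genes in a fit of all 12 libraries, and 0 of 8 members passed an adjusted p of 0.05, where 7.16% of all genes did. BOK had an unadjusted p under 0.05, as 21.8% of all genes did, which rests on the 16 counts of CE-26, and DESeq2 gave 1 member, VDAC2. For VDAC2 the change in SUDHL16 less that in SUDHL6 was -0.23 (95% interval -0.65 to 0.19, edgeR adjusted p = 0.545) and -0.28 in DESeq2 (adjusted p = 0.0467, the lowest over the alternatives, of which the highest was 1). Without CE-26 it was -0.34 (edgeR adjusted p = 0.112). In that fit 0 of 8 members passed, where 14.0% of all genes did, and 1, VDAC2, had an unadjusted p under 0.05, as 5663 of 20959 genes did. For CYCS the difference was -0.65 (95% interval -1.49 to 0.18, edgeR adjusted p = 0.355), and -0.63 without CE-26 (edgeR adjusted p = 0.345). That 4 members passed in SUDHL6 and 0 in SUDHL16 therefore does not show that the lines differed.

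Reads of near-identical copies bear on VDAC2 and BAK1. The processed pseudogene VDAC2P5 (chr2:65205108-65205988, plus strand) was identical to the VDAC2 coding sequence at 877 of 879 aligned bases, and BAK1P1 (chr20:32690180-32690815, minus strand) to that of BAK1 at 622 of 633. The stretches below, each 90 bases of coding sequence from GENCODE 44 (GRCh38) or the matching bases of the copy, are shown for the bases by which a read of the gene can be told from a read of its copy, and were taken where these are densest. Capitals mark the bases that differ.
VDAC2: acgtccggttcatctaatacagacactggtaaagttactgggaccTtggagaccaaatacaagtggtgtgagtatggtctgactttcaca
VDAC2P5: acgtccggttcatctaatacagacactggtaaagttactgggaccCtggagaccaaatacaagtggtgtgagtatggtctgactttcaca
BAK1: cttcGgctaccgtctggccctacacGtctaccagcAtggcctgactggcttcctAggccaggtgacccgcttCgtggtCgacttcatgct
BAK1P1: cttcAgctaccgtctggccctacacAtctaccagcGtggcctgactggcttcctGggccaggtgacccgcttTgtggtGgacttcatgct

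VDAC2P5 shared 687 of its 832 stretches of 50 bases with VDAC2 transcripts, and BAK1P1 shared 277 of 587 with BAK1. VDAC2P5 had 103 to 132 counts in each SUDHL6 library, and 234, 26 and 257 in SUDHL16-parental against 159, 169 and 163 in SUDHL16-resistant. Counts on the 5 VDAC2 pseudogenes made up 1.83% to 2.42% of the summed counts of the gene and these copies in SUDHL6. In SUDHL16 the share was 9.69%, 10.3% and 11.4% in the parental and 11%, 8.27% and 6.78% in the resistant libraries.

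The copies of the other members took fewer counts. BAK1P1 had 1 to 6 counts in SUDHL6 and 0 to 28 in SUDHL16, with 7, 0 and 10 in the parental and 23, 12 and 28 in the resistant libraries. The 2 BAK1 pseudogenes held at most 3.48% of the counts in any library. The 13 VDAC1 pseudogenes held at most 8.08% and the 42 CYCS pseudogenes at most 6.26%, both in CE-26. With the counts of its copies added, VDAC2 had a log2 fold change of -0.14 in SUDHL6 and -0.44 in SUDHL16, and BAK1 of 0.24 and 0.28. BAX, BOK, APAF1 and CASP9 had no pseudogene with a symbol of this kind.

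Genes that overlap a member on the opposite strand were nearly silent. GGNBP1 at BAK1 had 101 counts over the 12 libraries, equal to 0.639% of those of BAK1, and ENSG00000271737 at VDAC1 had 65. ANKS1B at APAF1 had 22 counts, of which 17 were in CE-26, CELA2B at CASP9 had 15 and BOK-AS1 had 0. BAX, VDAC2 and CYCS had no overlapping gene. The strand setting of the counting is not given in the sources used here, so whether reads from the opposite strand are part of a member's count was not tested.

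The position of a member on its chromosome was compared with the change of its neighbours, the other tested protein-coding genes that start within 1 Mb. In SUDHL6 the median log2 fold change of the neighbours was between -0.06 and 0.10 for the 8 members, where that of 12270 protein-coding genes was 0.00. BAK1 (0.24, against 0.03 for 45 neighbours) and VDAC2 (-0.15, against 0.04 for 3 neighbours) lay apart from theirs. APAF1 had 3 tested neighbours, with a median of -0.01.

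In SUDHL16 some members lay on the side of their neighbours and others did not. The 41 neighbours of BAK1 had a median log2 fold change of 0.29 beside 0.25 for BAK1, but without CE-26 it was 0.40 beside 0.06. The medians for BAX (0.21) and VDAC1 (0.09) without CE-26 lay on the other side of 0 from these members, at -0.06 and -0.12. The 15 neighbours of CASP9 had a median of 0.30, of which 11 were higher in resistant cells, where the median of 11547 protein-coding genes was 0.04. VDAC2 had 3 neighbours within 1 Mb, with a median of -0.48, and 21 within 2 Mb, with a median of -0.37, of which 4 were higher in resistant cells. Without CE-26 the value within 2 Mb was -0.43, and the medians within 1 Mb were 0.30 for CASP9 and -0.56 for CYCS. The 4 neighbours of CYCS, GSDME among them, had a median of -0.48. Within 500 kb the medians were smaller for BAK1, at 0.06 over 22 genes, and for CYCS, at -0.09 over 3 genes. No cause was tested for these regional medians.

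The genes most like BAX over the 12 libraries, by the Pearson correlation of log2(CPM + 1) less the mean of the line among 8859 other protein-coding genes, were AP5Z1 (r = 0.951), SLC26A6 (r = 0.928) and SLC12A4 (r = 0.917). Without CE-26 these were 0.952, 0.932 and 0.921. For BAK1 they were MYO9B (r = 0.980), PTK2B (r = 0.977) and FLOT2 (r = 0.968), and 0.958, 0.925 and 0.914 without CE-26. The libraries of a line share its kit and instrument and differ in depth, and SUDHL16 has the wider spread of the lines.

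Other genes of the pathway were read from 5 fixed lists with 36 genes. In SUDHL6, 35 were tested, 3 were called raised and 0 lowered, and 10 rose and 9 fell past the adjusted p alone, where 8.96% of all genes were called, 17.7% rose and 19.7% fell. Their median log2 fold change was 0.06, where that of all genes tested was 0.00. In SUDHL16, 35 were tested, 1 was called raised and 0 lowered, where 5.30% of all genes were called, with a median of 0.15 against -0.02 for all genes tested. Without CE-26 the medians were -0.01 and 0.05. At an unadjusted p under 0.05 there were 23 in SUDHL6, where 45.2% of all genes were, and 6 in SUDHL16, where 19.1% were, so the SUDHL16 count lies near the share over all genes. The SUDHL6 calls of GSDME and TSPO did not pass in the fit of all 12 libraries, where the edgeR adjusted p, the highest over the alternatives of each gene, was 0.274 for GSDME and 0.561 for TSPO, and the lowest 9.15e-84 with DESeq2 for GSDME and 6.83e-07 with edgeR for TSPO.

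Among executioner caspases and substrates, GSDME, a gasdermin that caspase-3 cleaves into a pore-forming fragment, had 11.6, 9.80 and 9.88 CPM in SUDHL6-parental and 27.9, 29.1 and 30.5 CPM in SUDHL6-resistant. It rose 2.80-fold (log2 fold change 1.49, 95% interval 1.33 to 1.65, edgeR adjusted p = 1.13e-08). The resistant libraries all lay above the parental ones. Of the 7 genes of this list 2 were called in SUDHL6, where 8.96% of all genes were, and 0 in SUDHL16, where 5.30% were. At an unadjusted p under 0.05 edgeR gave 2 in SUDHL16, where 19.1% of all genes were, and 1 without CE-26, where 23.3% were. With all SUDHL16 libraries DESeq2 called 1, GSDME.

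Among VDAC partners, TSPO, an outer membrane protein found with VDAC, had 0.264, 0.266 and 0.860 CPM in SUDHL6-parental and 3.53, 3.49 and 2.97 CPM in SUDHL6-resistant. It rose 6.91-fold (log2 fold change 2.79, 95% interval 2.08 to 3.50, edgeR adjusted p = 2.21e-05) from 9, 9 and 35 counts. The log2 fold change was 3.64 without SUDHL6-parental replicate 3, the library with 35 counts. In SUDHL16 it was not tested, with 0 counts in the 3 parental libraries and 13, 0 and 11 in the resistant ones. Of the 8 genes of this list 3 rose and 4 fell past the adjusted p alone in SUDHL6, where 17.7% and 19.7% of all genes did. Among those that fell was VDAC3, the remaining VDAC gene, named after its values were seen. VDAC3 fell by 0.16 on the log2 scale (edgeR adjusted p = 4.19e-04). In SUDHL16 VDAC3 had 32.9, 20 and 34.7 CPM in the parental and 42.5, 56.5 and 66 CPM in the resistant libraries, a log2 fold change of 0.90 that did not pass (edgeR adjusted p = 0.127), and 0.71 without CE-26 (edgeR adjusted p = 0.114).

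Of the 8 inhibitors of apoptosis, 0 of 7 tested were called in SUDHL6 by edgeR and by DESeq2, where edgeR called 8.96% of all genes. At an unadjusted p under 0.05 there were 6 in SUDHL6, where 45.2% of all genes were. In SUDHL16 1 was called, where 5.30% of all genes were. BIRC7, an inhibitor of apoptosis protein that can bind caspases, had 1.82, 3.79 and 2.54 CPM in SUDHL16-parental and 30.2, 45.5 and 13.3 CPM in SUDHL16-resistant. All resistant libraries lay above all parental ones. BIRC7 rose 11.6-fold (log2 fold change 3.53, 95% interval 2.31 to 4.76, edgeR adjusted p = 0.00797), and 13.7-fold without CE-26 (edgeR adjusted p = 0.00430). Without SUDHL16-resistant replicate 2 the edgeR adjusted p was 0.0505, which ends the call, and over the alternatives the adjusted p was 1.05e-07 (DESeq2) to 0.0505. In SUDHL6 it had 0 counts in 5 libraries and 2 in SUDHL6-resistant replicate 2.

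Among the proteins released with cytochrome c 0 of 5 genes were called in either line by edgeR or DESeq2. An unadjusted p under 0.05 was reached by 3 in SUDHL6, where 45.2% of all genes reached it, and by 0 in SUDHL16, where 19.1% did. The gene with the smallest p was HTRA2 in SUDHL6 and ENDOG in SUDHL16. HTRA2, a mitochondrial protease, rose in SUDHL6 by a log2 fold change of 0.32 (edgeR adjusted p = 6.21e-04). It did not pass in the fit of all 12 libraries, where the adjusted p was 1 and the lowest over its alternatives was 5.92e-08 with DESeq2. ENDOG, a mitochondrial nuclease, rose there by 0.26 (edgeR adjusted p = 0.0116) and had a log2 fold change of -1.10 in SUDHL16 (95% interval -2.26 to 0.05, edgeR adjusted p = 0.286), which became -0.50 without CE-26. The SUDHL6 rise of ENDOG did not pass without SUDHL6-parental replicate 3 (edgeR adjusted p = 0.0531) and in the fit of all 12 libraries, where the adjusted p was 1, and the lowest over its alternatives was 0.00107 with DESeq2.

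Of the 8 membrane and cristae factors 0 were called in either line by edgeR or DESeq2. An unadjusted p under 0.05 was reached by 3 in SUDHL6, where 45.2% of all genes reached it, and by 1 in SUDHL16, where 19.1% did. DNM1L, the GTPase that divides mitochondria, had 130, 133 and 125 CPM in SUDHL6-parental and 85.6, 85.1 and 89.3 CPM in SUDHL6-resistant. It fell to 0.669 times the parental level (log2 fold change -0.58, 95% interval -0.65 to -0.51, edgeR adjusted p = 1.98e-08), just short of the 1.5-fold limit. It was called without SUDHL6-parental replicate 3 and without SUDHL6-resistant replicate 3, and it did not pass in the fit of all 12 libraries (edgeR adjusted p = 0.137, the highest over its alternatives, the lowest being 1.17e-74 with DESeq2). FIS1 had the smallest p of the list in SUDHL16, with a log2 fold change of 0.91 (95% interval 0.22 to 1.59, edgeR adjusted p = 0.140), and 0.69 without CE-26 (edgeR adjusted p = 0.121). It passed in the fit of all 12 libraries (edgeR adjusted p = 0.0290, the lowest over its alternatives, the highest 0.349).

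**Figure D5:**
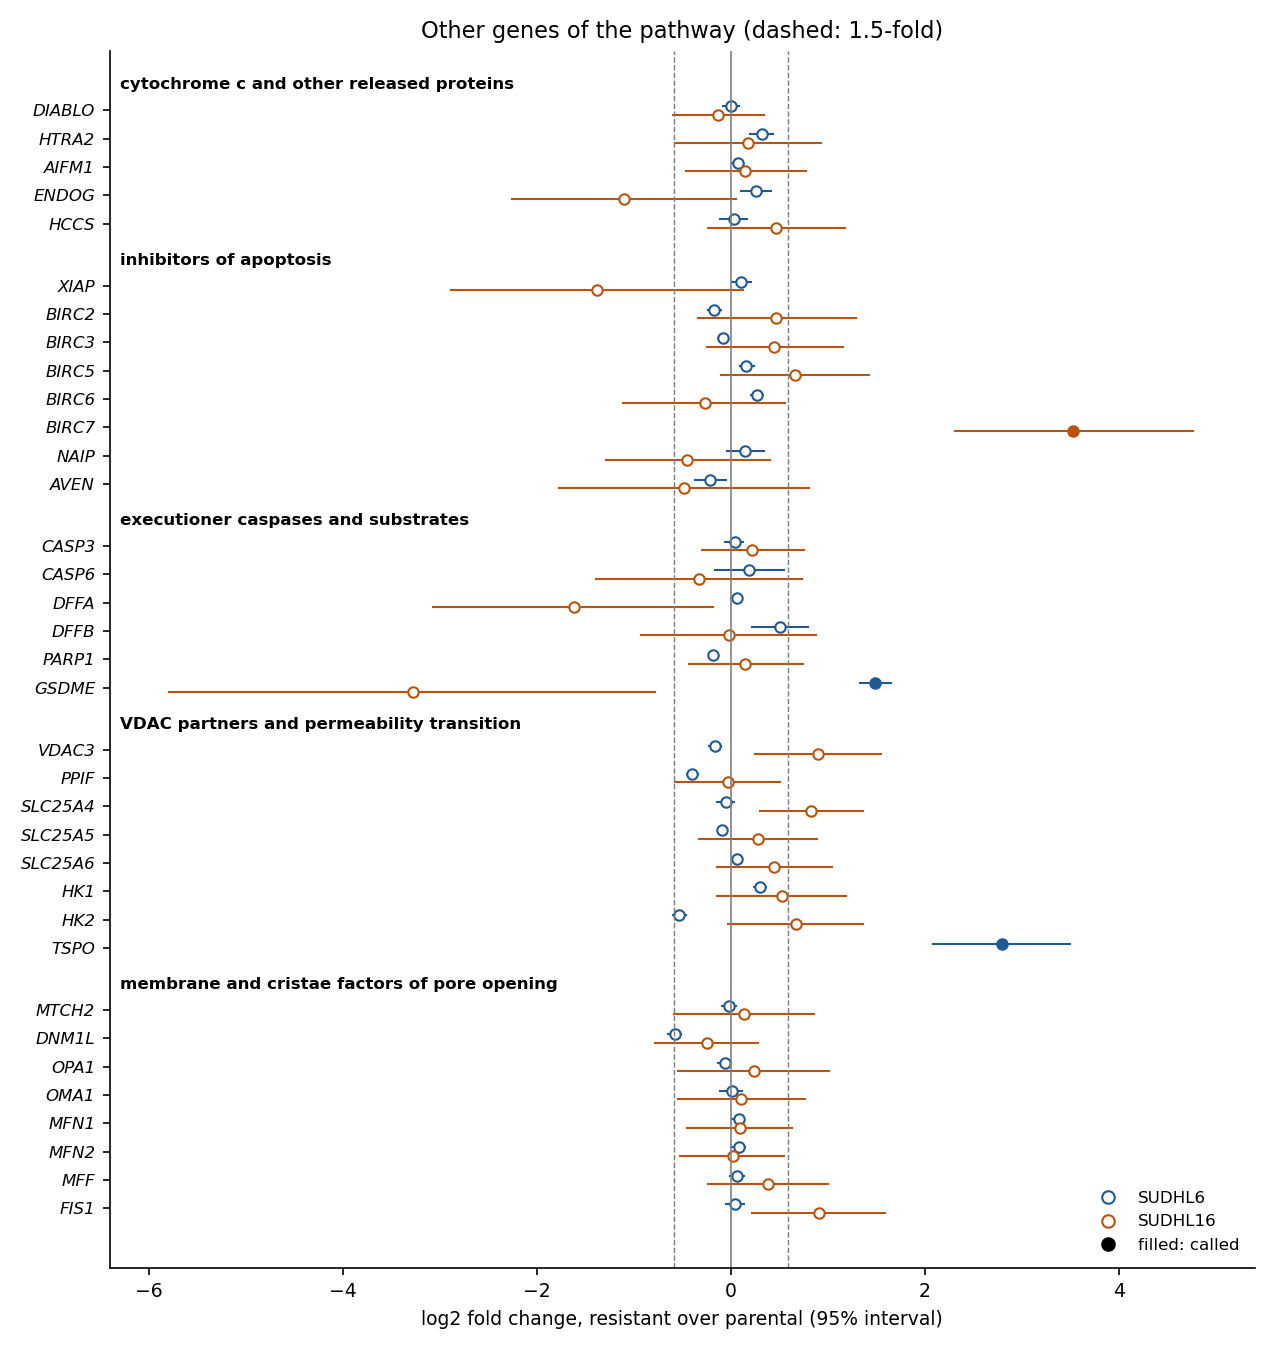
log2 fold change of 35 of the 36 other genes of the pathway, resistant over parental, with 95% intervals, in SUDHL6 and SUDHL16, grouped by list, with dashed lines at a 1.5-fold change and filled points for called genes. GSDME and TSPO are drawn as called in SUDHL6 and BIRC7 in SUDHL16, and GSDME lies at 1.49 in SUDHL6 and -3.28 in SUDHL16.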

How the data were processed

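Per the labels and the methods, the authors trimmed reads with Trim Galore, used HISAT2 for alignment to GRCh38 and StringTie for transcripts, and tested with edgeR. They deposited whole-number counts per gene for each library, without normalization. The counting tool, annotation and strand setting are not given in the sources used here. Of 60675 identifiers, 56558 (93.21%) were matched to GENCODE 44, and 4117 were kept under their identifiers.

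Each line was fitted on its own 6 libraries in edgeR 4.0.16 (R 4.3.3) with filterByExpr, TMM and the two-sided quasi-likelihood test, adjusted by Benjamini-Hochberg over all genes tested. Genes were called at an adjusted p under 0.05 and at least 1.5-fold. Intervals are 95%. Those of fold changes include the spread between libraries, whereas Poisson intervals and floors of 3 counts cover counting error only. The difference of the lines was the interaction in a fit of 12 libraries. No pair of libraries within a group was identical, and none of these pairs agreed within sampling noise (chi-square per gene 3.35 to 288). Alternatives were DESeq2 1.42.0, other scalings, no filter, protein-coding genes only, limma 3.58.1 voom with quality weights, 1 fit of 12 libraries, no fold limit, each library left out, and neighbour windows of 500 kb and 2 Mb. Added after the data were seen were the alternatives for single pathway genes, counts of members by the adjusted p alone, and the addition of pseudogene counts. Named genes were the 8 members, the pathway genes called in a line (1 of them is not reported here) or, in lists with none, with the smallest p of each line, the 3 most like BAX and BAK1 among protein-coding genes averaging 5 CPM or more in each line, and overlapping genes and pseudogenes. VDAC3, HK2, BIRC6, DFFB and SLC25A4 were named after their values were seen. The members and lists were chosen with earlier results of these data known. The fitting code was also tested on simulated data, which give no value here. Other steps used Python 3.11.15, pandas 2.3.3, scipy 1.17.1 and Biopython 1.88.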

Additional observations from a re-analysis of the deposited data

Results flagged for a closer look

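The change of GSDME differed between the lines. Its change in SUDHL16 less that in SUDHL6 was -4.58 on the log2 scale (95% interval -6.12 to -3.03, edgeR adjusted p = 0.00210), and -4.37 without CE-26 (edgeR adjusted p = 6.40e-04). In SUDHL16 it had 3.20, 5.85 and 3.23 CPM in the parental and 0, 0.423 and 0.766 CPM in the resistant libraries, from 58, 17 and 52 and from 0, 9 and 18 counts, where the line's own fit gave a log2 fold change of -3.28 (edgeR adjusted p = 0.143). That SUDHL16 change passed in the fit of all 12 libraries (edgeR adjusted p = 0.00328), with limma voom (adjusted p = 0.0249) and with DESeq2 (adjusted p = 0.0470). It did not pass under 10 of 13 alternatives, with adjusted p up to 0.394. The difference of the lines passed under 18 of 18 alternatives, with adjusted p of 7.62e-15 to 0.0114. GSDME lies among the 4 tested neighbours of CYCS, within 1 Mb.

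The change of SLC25A4, an ADP/ATP carrier of the inner membrane, also differed, by 0.92 (95% interval 0.42 to 1.41, edgeR adjusted p = 0.0309). It had 36.9, 39.9 and 46.1 CPM in SUDHL16-parental and 61.0, 87.4 and 70.0 CPM in SUDHL16-resistant, and 46.4 to 49.4 against 45.3 to 48.1 CPM in SUDHL6. SLC25A4 passed in neither line's own fit. The log2 fold change was 0.83 in SUDHL16 (edgeR adjusted p = 0.0839) and -0.05 in SUDHL6 (edgeR adjusted p = 0.316). The difference passed under 7 of 18 alternatives, with adjusted p of 0.00117 to 0.143. With CE-26 the change differed for 2 of the 36 pathway genes, where it did for 7.16% of all genes, and without it for 5 of 36, where it did for 14.0%, so the count moved as it did over all genes. The others were VDAC3 (0.84, edgeR adjusted p = 0.0263), HK2 (95% interval 0.40 to 1.60, edgeR adjusted p = 0.0311) and BIRC6 (-0.86, edgeR adjusted p = 0.0128). Kit and instrument cannot be told apart from the line in either difference.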

How the results depend on the processing

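Of 329 refits of single members, 324 kept their side of an adjusted p of 0.05, 4 lost it (BAK1, VDAC1, VDAC2 and APAF1 of SUDHL6 in 1 fit of 12 libraries) and 1 gained it (the difference of the lines in VDAC2 with DESeq2, -0.28). Members called in SUDHL6 were 4 with the adjusted p alone against 0 with the fold limit. In the fit of 12 libraries, 0 members passed the adjusted p against 4, and 140 genes were called against 1493. Members with a different change in the lines were 1 with DESeq2 against 0. Leaving out each library gave 3 to 5 called pathway genes in SUDHL6 against 3, with DNM1L and DFFB added without SUDHL6-parental replicate 3 and DNM1L without SUDHL6-resistant replicate 3, and 0 to 1 in SUDHL16 against 1. DESeq2 called 3 there, adding GSDME and SLC25A4. The median of the neighbours of APAF1 in SUDHL16 was 0.10 within 2 Mb against -0.16. The cause was not tested for these. Over all genes SUDHL16 calls numbered 833, 279 to 1636 with a library left out, 2079 with DESeq2, 2648 with voom and 2855 in the fit of 12 libraries. Of them 60.4% were raised, and 48.2% with DESeq2. The median of all genes in SUDHL16 was -0.02, -0.11 with upper-quartile scaling, 0.11 with library totals, -1.37 with DESeq2 and -1.18 without a filter. The DESeq2 fit also had no filter on low counts, so its median and that without a filter cover a wider set of genes than the others. VDAC2 lay between -0.51 and -0.29 over the alternatives other than leaving out a library. Labels give no replicate numbers. No paired analysis was possible because the libraries carry none. In SUDHL16 the median width of the members' log2 intervals was 1.16 without CE-26, the library of lowest depth, against 1.27 with it and 0.142 in SUDHL6.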

Other observations

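The share of counts on the mitochondrially encoded genes, chosen after the values were seen, was 5.61%, 5.60% and 5.61% in SUDHL6-parental and 6.63%, 6.59% and 6.34% in SUDHL6-resistant, without overlap. In SUDHL16 it was 0.818%, 2.62% and 1.05% in the parental and 1.11%, 0.752% and 1.14% in the resistant libraries, with the highest value in CE-26. No test was made of these shares.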
